A study of Mus musculus with 4 samples.

Results

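The genes described here encode the cytosolic and mitochondrial heat shock chaperones and their regulators: the HSP70, HSP110, HSP90, HSP60 and small heat shock proteins, J-domain cochaperones, other cochaperones, the subunits of the CCT ring, and the factors Hsf1 and Hsf2. The list of 40 gene symbols follows family membership, though it was drawn up with earlier results of these data known, and 36 of them have a row among the 24768 genes used here. The other 4, Hspa4l, Dnajb1, Ahsa1 and Tcp1, were not analysed here. The RNA came from mouse cDNT cells, where DNT stands for double-negative T cells (no CD4, no CD8 on the surface). Wild-type cells (WT, 2 libraries) were compared with cells whose genotype is labelled Tbx21-KO (2 libraries). The product of Tbx21 is T-bet, a T-box factor that drives interferon-gamma expression in lymphocytes. According to its title the study asked how T-bet bears on the ability of such cells to restrain immune responses. The design text calls the same cells a knockdown. The labels used here give no strain, age, treatment or culture time, do not spell out the "c" in cDNT, and do not say whether the libraries of a group came from separate animals or cultures.

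Heat shock proteins are chaperones that bind unfolded proteins and help them fold. Most use ATP for this, while the small heat shock proteins hold unfolded proteins without it. HSP70 takes up a substrate with the help of a J-domain protein and releases it with the help of a nucleotide exchange factor such as an HSP110 or BAG protein. HSP90 finishes the folding of kinases and receptors, among them the T cell kinase LCK, while the barrel-shaped CCT ring folds actin and tubulin, and HSP60 with its lid HSP10 folds proteins inside mitochondria. Some of these genes are active in every cell and others are switched on by HSF1 under stress. Activation of T cells is known to raise several of them.

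Values are FPKM, fragments counted, scaled by gene length and library size, as the authors deposited them. The FPKM steps of low genes imply 23339780 to 24964180 counted reads per library. Tbx21 stood at 13.2 and 11.7 FPKM in WT and at 2.29 and 2.41 FPKM in Tbx21-KO, lower in each Tbx21-KO library than in either WT library. The T cell label was checked with Cd3e, a chain of the T cell receptor complex, which stood at 57.2 and 56.1 FPKM in WT and at 40.2 and 39.8 FPKM in Tbx21-KO. Some genes of the T cell receptor list fell further, with Lck, the kinase of the receptor, at 42.1% of its WT mean and the costimulatory receptor Cd28 at 35.3%. Others fell less, such as Thy1 at 82.1%, and Cd5 rose to 155%. Of the 18 tested genes of this list 13 fell, 1 rose and 4 were not called. The shares over all genes tested were 23% lower and 30.1% higher. Among markers of other cells those of granulocytes stood apart most. The summed FPKM of 11 granulocyte markers was 8.66 and 10.9 in WT and 10517 and 10822 in Tbx21-KO, with S100a9 at 2.38 and 2.30 against 3856 and 4068 FPKM, and all 11 rose. In WT, 6 of these 11 were under 1 FPKM in both libraries and 1 was at 0 in a library. The summed FPKM of 8 macrophage and monocyte markers was 25.1 and 30.02 in WT and 309 and 332 in Tbx21-KO, and all 6 tested rose. Of 6 dendritic cell markers tested 4 rose, as did both tested B cell markers. Among 10 genes of stress and RNA quality 3 rose and 3 fell. The early response genes Fos and Jun reached 181% and 139% of WT and the stress gene Gadd45b 216%, each called higher in all 15 alternative fits. The mitochondrial transcript mt-Cytb was at 54.7% of WT and called lower in all 15, and Atf4, a factor of the integrated stress response, was at 75.5%, with a log2 fold change of 0.04 and no call under scaling to T cell receptor genes. The third that fell, mt-Nd1, was at 82.1% of WT and turned to 0.17 under that scaling. The part of other cells, stress or RNA quality in the chaperone values was not tested, and in bulk RNA fewer cells of a type and less RNA per cell cannot be told apart.

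Most of the abundant chaperone genes were lower in Tbx21-KO, and the few that were higher were of low abundance. Of the 33 genes that passed the filter of a mean FPKM of at least 1, 22 fell, 3 rose and 8 were not called (limma on log2(FPKM + 1), adjusted p under 0.05 over all 11013 genes tested). Among all genes tested 23% were lower and 30.1% were higher, together 53.1%. The falls were small: the median log2 fold change of the 33 genes was -0.23, against 0.04 over all genes tested. Together the 36 genes took 1.38% and 1.37% of the counted reads in WT and 1.12% and 1.13% in Tbx21-KO. The 3 genes that rose were Hsf2, Hspa2 and Bag3. In 30 of the 33 genes both Tbx21-KO libraries lay on the same side of both WT libraries, but this held for 79% of all genes tested.

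The sign of these falls depended on how the libraries were scaled. When the libraries were rescaled to a common level of 18 T cell receptor complex genes, a list that itself was mostly lower in Tbx21-KO (13 of 18 fell and 1 rose), 23 of the 33 chaperone genes were higher and 1, Hspa9, was lower. Under it 71.5% of all genes were higher and 4.94% lower, and the median of all genes moved up by 0.39 on the log2 scale. Median-of-ratios scaling gave 3 higher and 25 lower chaperone genes, against 24.1% and 32% of all genes, and quantile normalization gave 3 and 22, against 22.1% and 34.5%. The place of the chaperones among the other genes turned under none of these scalings. Median-of-ratios and T cell receptor list scaling divide each library by a common factor, which moves all genes almost alike. They could therefore hardly have changed this place. Quantile normalization could have, and there the difference between the medians given below was smallest in size. In the deposited values 29 of the 33 lay below the median of all genes, with median-of-ratios scaling 29, with quantile normalization 27 and with the T cell receptor list 27. The median log2 fold change of the chaperone genes minus that of all genes was -0.27, -0.28, -0.10 and -0.20 in the same order. Below, "fell" and "rose" refer to the deposited scale, and a median-of-ratios scaling or quantile normalization turned none of the 25 called genes around.

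**Figure D1:**
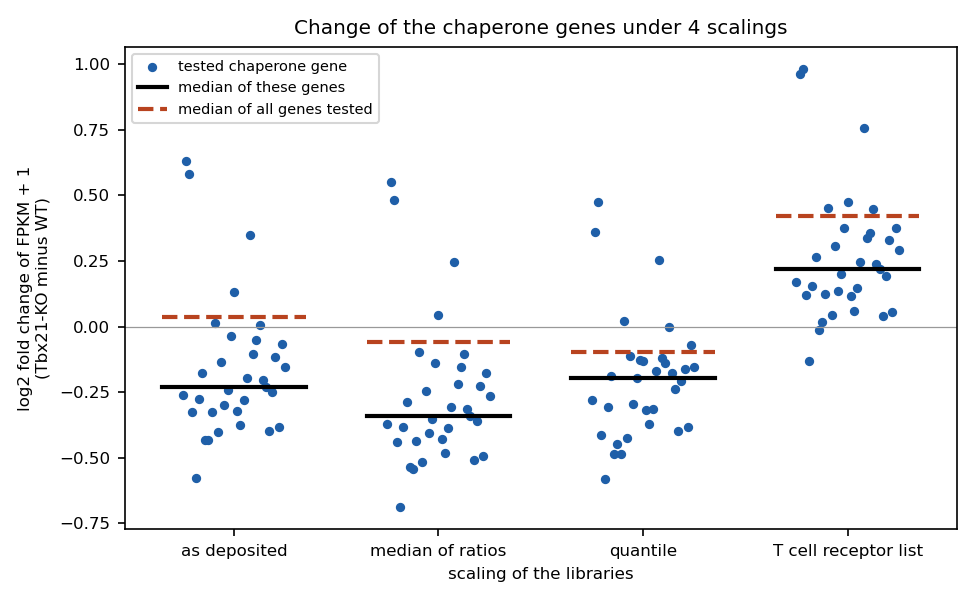
Log2 fold change (Tbx21-KO minus WT, log2 of FPKM + 1) of the 33 tested chaperone genes under 4 scalings of the libraries, 1 point per gene, with the median of these genes (black) and of all genes tested (dashed). The cloud moves above 0 with the T cell receptor list, and its median stays under the median of all genes in each column. Median-of-ratios and T cell receptor list scaling move all genes almost alike, so they could hardly change that order.

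**Figure D2:**
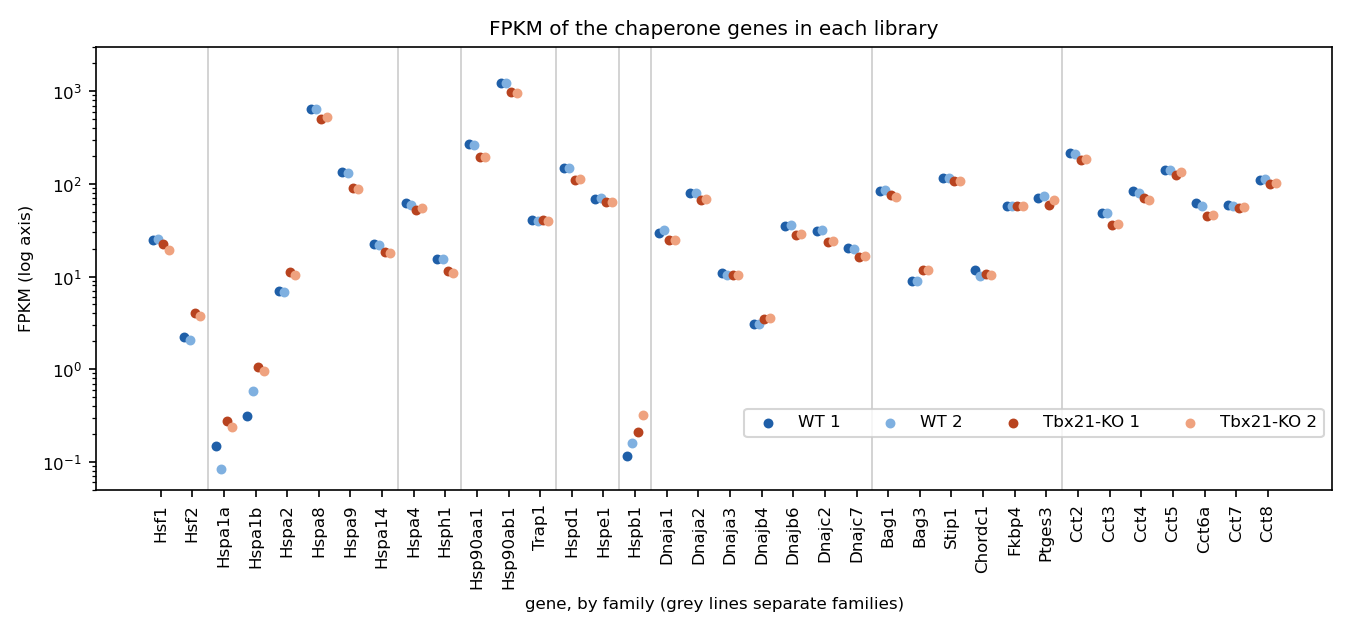
FPKM (log axis) of the 36 chaperone genes in each library, 1 point per library and gene, arranged by family. Hsp90ab1 and Hspa8 stand highest, and Hspa1a, Hspa1b and Hspb1 stand lowest, at or below about 1 FPKM.

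The regulators moved in opposite directions. Hsf1, the master factor of the heat shock response, stood at 25.1 and 25.3 FPKM in WT and at 22.5 and 19.3 FPKM in Tbx21-KO. The WT libraries were nearly equal and both Tbx21-KO libraries lay below them, though apart from each other. Its log2 fold change was -0.26 (SE 0.08, limma adjusted p = 0.0412), and the call was lost in 6 of 15 alternative fits, among them the fit without the second Tbx21-KO library, where the log2 fold change was -0.16. Scaling to the T cell receptor list gave 0.17. Hsf2, a related factor that can pair with HSF1 and is known from development, stood at 2.23 and 2.07 FPKM in WT and at 4.03 and 3.75 FPKM in Tbx21-KO. Both Tbx21-KO libraries were well above both WT libraries, and the log2 fold change was 0.63 (SE 0.08, limma adjusted p = 0.00253). The rise of Hsf2 was called in all 14 alternative fits that held the gene. Within a library the FPKM ratio of Hsf2 to Hsf1, which dividing a library by a common factor cannot change, was 0.0892 and 0.0817 in WT and 0.179 and 0.194 in Tbx21-KO. Hsf1 remained the higher of the pair in all 4 libraries.

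Some of the stress-inducible genes that HSF1 is known for, Hspa1a, Hspa1b and Hspb1, were near the floor in every library. Other inducible genes or HSF1 targets, Hsp90aa1, Hsph1 and Bag3, stood well above it and are described below. Hspa1a and Hspa1b, neighbouring genes on GRCm38 chromosome 17 that encode the inducible HSP70, were below the filter and were not tested. Hspa1a had 0.148 and 0.0838 FPKM in WT and 0.274 and 0.238 FPKM in Tbx21-KO, from 11 and 6 reads in the former and 19 and 17 in the latter. Hspa1b had 0.314 and 0.577 FPKM in WT and 1.05 and 0.95 FPKM in Tbx21-KO, or 22 and 39 against 69 and 64 reads. For both genes the Tbx21-KO libraries were the higher pair, but the reads are few beside the 68821 and 66937 counted for the constitutive Hspa8 in WT. Their coding sequences were 99.6% identical over 1923 aligned bases, so reads could be split between them and the single values are uncertain. Hspb1, the small heat shock protein HSP27 that guards the actin skeleton, was counted 3 and 4 times in WT, then 5 and 8 times in Tbx21-KO. None of Hspa1a, Hspa1b and Hspb1 was called when the filter was dropped.

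The upstream sequences of Hspa1a and Hspa1b are shown because they carry the binding site of HSF1, the heat shock element, which is built of inverted GAA units. They come from RefSeq (GRCm38.p6), run from 250 bases upstream to the last base before the gene's start, 5′ to 3′ on the minus strand, and capitals mark a pair of inverted units (GAANNTTC or TTCNNGAA, each its own reverse complement, so both strands are covered, and matches may overlap).
Hspa1a, chr17:34972157-34972406: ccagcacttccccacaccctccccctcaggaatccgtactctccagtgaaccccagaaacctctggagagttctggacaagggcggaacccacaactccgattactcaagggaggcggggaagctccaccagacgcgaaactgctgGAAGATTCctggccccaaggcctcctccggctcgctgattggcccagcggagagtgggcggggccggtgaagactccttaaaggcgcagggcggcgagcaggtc
Hspa1b, chr17:34959239-34959488: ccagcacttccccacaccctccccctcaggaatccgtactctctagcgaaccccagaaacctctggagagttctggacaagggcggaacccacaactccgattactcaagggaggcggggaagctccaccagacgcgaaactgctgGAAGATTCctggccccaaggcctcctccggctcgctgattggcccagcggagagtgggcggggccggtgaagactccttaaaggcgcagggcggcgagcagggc
The 250 upstream bases of the pair were identical at 247 positions, with the match 104 to 97 bases before the start in each. No annotated exon overlaps either stretch.

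Upstream sequence was at hand for 29 of the 36 genes (not for Cct4, Dnajc2, Hsf1, Hsp90aa1, Hsp90ab1, Hspa8 and Hspa9). A pair of inverted units was found in 12 of the 29, and in 14.5% of all 27025 genes of the promoter table. An array of 3 units (GAANNTTCNNGAA on either strand) was found in 3 of the 29, Hspd1, Hspe1 and Dnajb6, and in 0.514% of all genes. These arrays are shown as stretches of 30 bases with the matched units in capitals, beside a pair each from Hsph1, Cct2 and Hspb1. Hspb1 held a second pair, not shown, 97 to 90 bases before its start. Starts are those of RefSeq, so a stretch can lie inside a gene whose GENCODE start is further upstream, as for Hspd1, Dnajb6, Hsph1 and Cct2.
Hspe1, chr1:55088053-55088082, plus strand: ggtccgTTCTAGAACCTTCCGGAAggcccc
Dnajb6, chr5:29735844-29735873, plus strand: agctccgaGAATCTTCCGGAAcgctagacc
Hsph1, chr5:149636351-149636380, minus strand: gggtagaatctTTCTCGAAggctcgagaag
Cct2, chr10:117063399-117063428, minus strand: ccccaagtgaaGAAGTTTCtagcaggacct
Hspb1, chr5:135887791-135887820, plus strand: cttcaacaagaGAAGTTTCcagatgggggc
The stretch named for Hspe1 is also the upstream sequence of Hspd1, which is transcribed the other way from the same region, so 1 array of 18 bases precedes a RefSeq start of each gene, by 89 to 72 bases for Hspe1 and by 144 to 127 bases for Hspd1. All 30 bases are exonic in GENCODE and lie inside Hspd1 as annotated there, and the window before the outer start of Hspd1 held no match. Of the 9 tested genes with a pair of units 6 fell and none rose, with a median log2 fold change of -0.23. The other genes with a pair, Hspa1a, Hspa1b and Hspb1, were below the filter. Their Tbx21-KO means were 221%, 225% and 191% of WT, from few reads. Of the 17 tested genes without a pair 9 fell and 3 rose, with a median of -0.15. Of all genes tested 23% were lower and 30.1% higher. The 3 genes called higher, Hsf2, Hspa2 and Bag3, had no pair in this window. A link between the pair and the differences was not tested. The core of the site bound by T-box factors (AGGTGTGA, both strands) was in none of the 29 and in 1.30% of all genes. A match or its absence describes these letters in this window and says nothing of binding.

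Of the 4 tested HSP70 genes 3 fell and 1 rose, while 23% of all genes tested were lower and 30.1% higher. Hspa8, the constitutive cytosolic HSP70 known as HSC70, was the second most abundant of all the chaperone genes and stood at 641 and 645 FPKM in WT and at 503 and 522 FPKM in Tbx21-KO. The replicate pairs were close together and well apart from each other, and the Tbx21-KO mean was 79.7% of the WT mean. The log2 fold change of Hspa8 was -0.33 (SE 0.04, limma adjusted p = 0.00300), or 0.12 with the T cell receptor list. Hspa9 (GRCm38 chromosome 18, 34937414 to 34954357), the mitochondrial HSP70 called mortalin, which pulls imported proteins into the matrix, was the gene with the largest fall among the 33. It stood at 134 and 132 FPKM in WT and at 89.9 and 87.8 FPKM in Tbx21-KO. The pairs lay far apart, and the difference was -0.58 on the log2 scale (SE 0.04, limma adjusted p = 0.000345). Hspa9 was lower under all 15 alternatives, with the T cell receptor list by 0.13 on the log2 scale, and no other of the 22 falling genes was called lower under all 15. Hspa14, an HSP70 that works at the ribosome, fell to 81.9% of WT and had a value of 0.15 with the T cell receptor list.

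Hspa2 (GRCm38 chromosome 12, 76404176 to 76406938), an HSP70 best known from the male germ line, rose. It stood at 6.95 and 6.79 FPKM in WT and at 11.2 and 10.4 FPKM in Tbx21-KO. The 4 values form separate pairs, and the log2 fold change of Hspa2 was 0.58 (SE 0.06, limma adjusted p = 0.00126). The rise was called under all 15 alternatives, with log2 fold changes of 0.41 to 0.98. It was seen in the libraries in which the granulocyte markers summed to 10517 and 10822 FPKM, and their part in it was not tested.

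Both HSP110 genes, whose products act as nucleotide exchange factors of HSP70, fell. Hspa4 stood at 62.6 and 59.4 FPKM in WT and at 52.8 and 55.0 FPKM in Tbx21-KO. The groups did not overlap, with 59.4 and 55.0 as their nearest values, and the call (log2 fold change -0.18, SE 0.05, limma adjusted p = 0.0285) was lost in 5 alternative fits and turned to 0.27 with the T cell receptor list. Hsph1, the heat-inducible member, fell further, to 72.5% of WT, from 15.49 and 15.50 FPKM to 11.4 and 11.04 FPKM. Its log2 fold change was -0.43 (SE 0.04, limma adjusted p = 0.00155), and -0.01 with the T cell receptor list, where it was not called.

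The HSP90 genes of the cytosol fell and the mitochondrial one did not pass the test. Hsp90ab1 (GRCm38 chromosome 17, 45567775 to 45573271), the constitutive form, was the most abundant chaperone gene and ranked 19 of 24768 by WT mean, at 1217 and 1218 FPKM in WT and 976 and 967 FPKM in Tbx21-KO. Its replicates were almost equal, and the log2 fold change was -0.33 (SE 0.04, limma adjusted p = 0.00305). Hsp90aa1, the inducible form, fell from 267 and 261 FPKM to 195 and 196 FPKM, to 74.1% of WT. Scaled to the T cell receptor list, Hsp90ab1 had a log2 fold change of 0.12 and Hsp90aa1 of 0.02. Within a library the FPKM ratio of Hsp90aa1 to Hsp90ab1 was 0.220 and 0.214 in WT and 0.200 and 0.202 in Tbx21-KO, so the inducible form was a somewhat smaller part of the pair in Tbx21-KO. The ratio of Hspa8 to Hsp90ab1, by contrast, overlapped between the groups, at 0.526 and 0.530 in WT and 0.516 and 0.540 in Tbx21-KO. Trap1, the HSP90 of mitochondria, stood at 40.4 and 39.6 FPKM in WT and at 41.03 and 39.7 FPKM in Tbx21-KO. The groups overlapped, and the 95% interval of the log2 fold change of Trap1 ran from -0.09 to 0.11. Scaled to the T cell receptor list Trap1 was called higher, at 0.45 (limma adjusted p = 0.000762).

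Both genes of the mitochondrial folding chamber fell, by unequal amounts. Hspd1 (GRCm38 chromosome 1, 55077835 to 55088243), which encodes HSP60, stood at 148 and 147 FPKM in WT and at 111 and 112 FPKM in Tbx21-KO, which is -0.40 on the log2 scale (SE 0.03, limma adjusted p = 0.000832). Hspe1, which encodes its lid HSP10 from the same divergent region shown above, stood at 68.2 and 71.02 FPKM in WT and at 63.04 and 63.5 FPKM in Tbx21-KO. The groups of Hspe1 did not overlap, but its fall to 90.9% of WT (log2 fold change -0.14, limma adjusted p = 0.0392) lost its call in 7 other fits, among them the one with the replicate number as a block, and it had a value of 0.31 with the T cell receptor list. Hspd1 was at 0.04 with that list and was not called. Within a library the FPKM ratio of Hspd1 to Hspe1 was 2.18 and 2.07 in WT and 1.76 and 1.76 in Tbx21-KO. In the deposited FPKM all libraries thus held more Hspd1 than Hspe1, by less in Tbx21-KO. The size of this gap depends on the gene length used, as described below for the CCT ring. Per kilobase of the principal transcript the means of Hspd1 and Hspe1 were 161 and 133 in WT. In Tbx21-KO they were 122 and 120, nearly equal. The exons of the pair share 112 bases on opposite strands, which is 7.60% of the exon length of Hspe1, and the sources used here do not say whether counting used strand.

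Of the 7 J-domain genes, whose products hand substrates to HSP70 and start its ATP cycle, 5 fell and 2 were not called. The share of all genes tested that were lower was 23%. Dnaja2, the most abundant, stood at 80.1 and 78.8 FPKM in WT and at 66.2 and 67.8 FPKM in Tbx21-KO. The groups did not overlap, and the difference was -0.24 on the log2 scale (SE 0.04, limma adjusted p = 0.00512). Dnajc2, a J protein of the ribosome, fell furthest, to 76.4% of WT, followed by Dnajb6, a suppressor of protein aggregation, at 79.5%, Dnaja1, a cytosolic partner of HSC70, at 80.7%, and Dnajc7, which also binds HSP90, at 81.5%. All 5 had values above 0 with the T cell receptor list, from 0.06 for Dnajc2 to 0.20 for Dnaja2. Dnaja3, the mitochondrial partner of Hspa9, had 10.9 and 10.5 FPKM in WT and 10.3 and 10.4 FPKM in Tbx21-KO. It was not called, with a 95% interval of -0.16 to 0.09. The FPKM ratio of Hspa9 to Dnaja3 within a library was 12.4 and 12.6 in WT and 8.70 and 8.41 in Tbx21-KO. Exons of Dnaja3 overlap those of Coro7 (3.91% of its length, opposite strand), which had 10.2 and 9.68 FPKM in WT and 31.5 and 29.6 in Tbx21-KO. They also overlap Vasn (4.09%, same strand), at 1.74 and 1.87 FPKM in WT and 6.68 and 5.34 in Tbx21-KO. The part of these neighbours in the Dnaja3 values was not tested. Dnajb4, a low gene, had 3.09 and 3.11 FPKM in WT and 3.46 and 3.52 FPKM in Tbx21-KO, where it missed the threshold (limma adjusted p = 0.150), but it was called higher, at 0.47, when scaled to the T cell receptor list.

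Other cochaperones of HSP70 and HSP90 were mixed. Among 6 tested genes 2 fell, 1 rose and 3 did not pass the test, with a median log2 fold change of -0.08. Over all genes tested the shares were 23% lower and 30.1% higher. Stip1, the most abundant, whose product HOP bridges HSP70 and HSP90, stood at 115 and 117 FPKM in WT and at 107 and 108 FPKM in Tbx21-KO. The groups did not overlap, but Stip1 missed the threshold (log2 fold change -0.11, limma adjusted p = 0.0545). Within a library the FPKM ratio of Stip1 to Hspa8 was 0.179 and 0.181 in WT and 0.213 and 0.206 in Tbx21-KO. Fkbp4, the immunophilin FKBP52 of steroid receptor complexes, and Chordc1, an HSP90 partner, overlapped between the groups, with 95% intervals of -0.09 to 0.10 and of -0.25 to 0.14. Both were called higher under scaling to the T cell receptor list, at 0.45 and 0.36. Bag1, a nucleotide exchange factor of HSP70, fell to 87.1% of WT, and Ptges3, the HSP90 cochaperone p23, to 86.8%. Scaled to the T cell receptor list they had log2 fold changes of 0.25 and 0.24, and the call of Ptges3 was lost in 6 further fits. Bag3, which couples HSP70 to autophagy and is a known HSF1 target, was the exception, at 8.99 and 9.04 FPKM in WT and 11.8 and 11.7 FPKM in Tbx21-KO. The replicates of Bag3 were nearly equal within each group, its log2 fold change was 0.35 (SE 0.04, limma adjusted p = 0.00309), and the rise was called under all 15 alternatives. Its values are printed in full because it was singled out after they were seen.

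**Figure D3:**
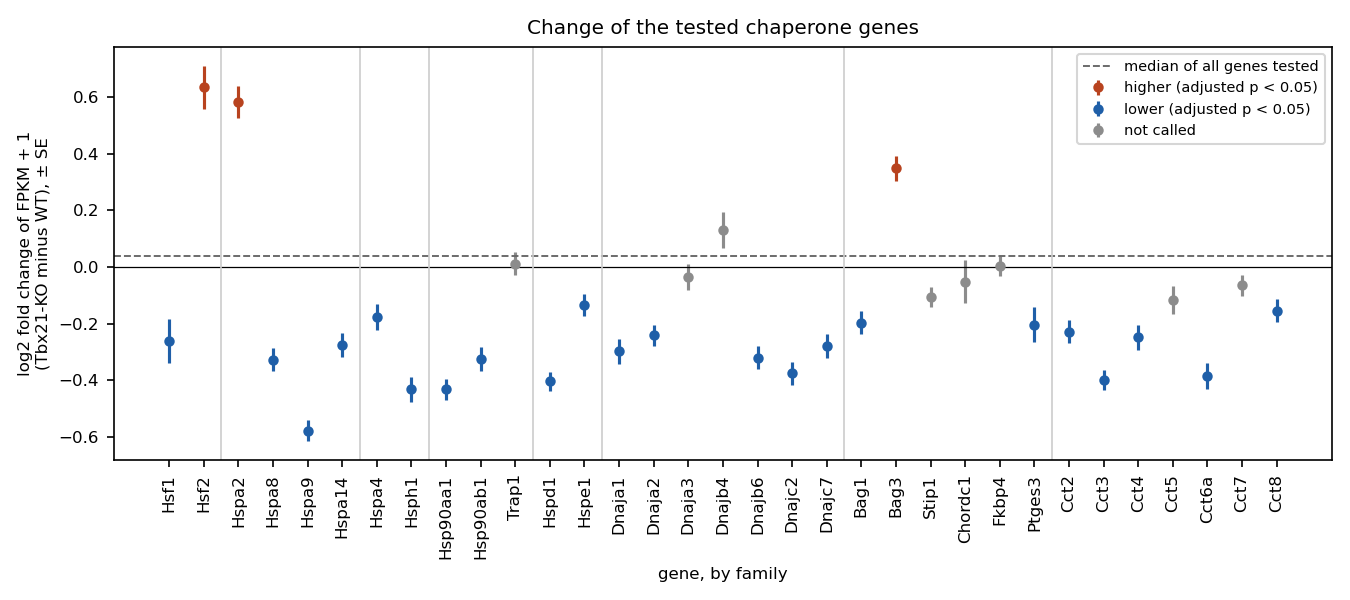
Log2 fold change (Tbx21-KO minus WT, log2 of FPKM + 1) with its standard error for the 33 tested chaperone genes by family, coloured by call, with the median of all genes tested (dashed, 0.04). The points below 0 reach -0.58 for Hspa9, and Hsf2, Hspa2 and Bag3 are the called genes above 0.

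The CCT ring, a double ring of related subunits, was measured through 7 of them. Of these 5 fell, while 23% of all genes tested did, and 2, Cct5 and Cct7, were not called. All 7 had both Tbx21-KO libraries below both WT libraries, but the groups were likewise apart, in either direction, in 79% of all genes tested. Cct2, the most abundant, stood at 217 and 209 FPKM in WT and at 179 and 184 FPKM in Tbx21-KO. Its difference was -0.23 on the log2 scale (SE 0.04, limma adjusted p = 0.00852). The subunits fell unequally. Cct3 and Cct6a reached 75.4% and 76.2% of WT, Cct4, Cct2 and Cct8 reached 83.9%, 85.3% and 89.7%, and Cct5 and Cct7 were at 92.3% and 95.5% of WT without passing the test. The 95% interval of the log2 fold change ran from -0.24 to 0.01 for Cct5 and from -0.16 to 0.03 for Cct7. Under scaling to the T cell receptor list all 7 had values above 0, from 0.04 for Cct3 to 0.38 for Cct7. Overlap with a neighbour on the other strand covers 12.5% of the exon length of Cct6a (Psph) and 6.22% of that of Cct8 (Usp16).

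The order of the CCT subunits by level depended on the gene length used. Within a library the highest subunit, Cct2, exceeded the lowest, Cct3, by 4.53 and 4.37 times in WT and by 5.003 and 5.06 times in Tbx21-KO in the deposited FPKM. These values reflect the summed length of all annotated exons, which for Cct3 is 6370 bases, although its principal transcript has 1977 bases. Per kilobase of the principal transcript, a measure added after seeing the data, the WT mean of Cct3 was 154 instead of 47.9, and the highest and lowest of the 6 subunits with a principal transcript differed by 2.01 and 2.02 times in WT and by 2.03 and 2.10 times in Tbx21-KO. The same measure set Hsf1 at 85.8 instead of 25.2 and Dnajb6 at 134 instead of 35.4 in WT. It kept Hsp90ab1, Hspa8, Hsp90aa1 and Cct2 as the 4 highest genes, in that order. Levels of different genes are therefore comparable only roughly, and differences between groups for the same gene are not touched.

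How abundant a chaperone gene was in WT went with how it differed. All 7 genes under 10 FPKM in WT (Hspa1a, Hspb1, Hspa1b, Hsf2, Dnajb4, Hspa2 and Bag3) had a higher mean in Tbx21-KO. Of the 4 that were tested 3 were called higher, against 37.1% of all tested genes under 10 FPKM, and the other 3 of the 7 were below the filter. Of the 29 genes at 10 FPKM or more 27 had a lower mean in Tbx21-KO, 22 of them called, and the other 2 were Trap1 and Fkbp4. This split at 10 FPKM was chosen after the values were seen. It also depends on the gene length used: per kilobase of the principal transcript the WT mean of Dnajb4 was 11.0. The whole table leaned the same way: the Tbx21-KO mean was higher in 65.1% of the 6412 tested genes under 10 FPKM in WT and in 39.0% of the 4601 above. Among those 4601 genes 38.5% were called lower. A gene that is low in WT can pass the filter through its Tbx21-KO values alone.

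**Figure D4:**
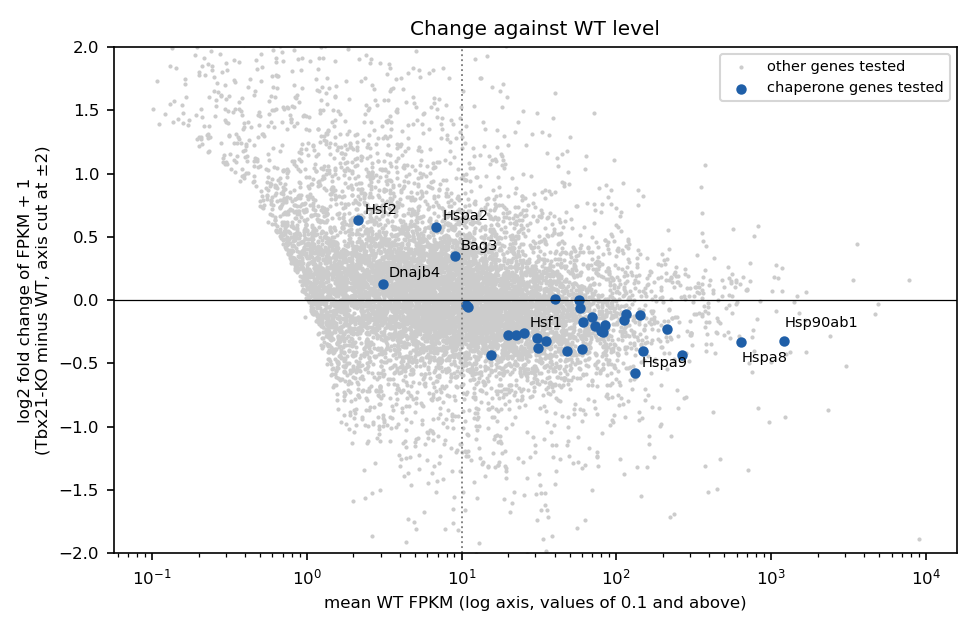
Log2 fold change (log2 of FPKM + 1, Tbx21-KO minus WT, axis limited to 2 in either direction) against mean WT FPKM (log axis) for the chaperone genes (blue) and the other genes tested (grey), with a dotted line at 10 FPKM. The blue points lie above 0 left of the line and mostly below 0 right of it.

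Other genes of the chaperone network were also measured. Of 49 tested genes from a list of further cochaperones, prefoldins, mitochondrial proteases and related factors, 10 fell, 7 rose and 32 missed the threshold, with a median log2 fold change of -0.05. Of all genes tested 23% were lower and 30.1% higher, so the falls were near the share of all genes and the rises below it. The largest falls were those of Hsf4, another heat shock factor, by 0.50 on the log2 scale, Fkbp5, an immunophilin of the HSP90 complex, by 0.42, and Vcp, the segregase that pulls proteins out of complexes, by 0.38. The largest rises were those of Dnajb2, Dnaja4 and Hspb11, with log2 fold changes of 0.44, 0.37 and 0.34, and none of these 3 was called after quantile normalization. Scaling to the T cell receptor list made 43 of the 49 higher and none lower, and Hsf4, Fkbp5 and Vcp, then not called, had values of -0.13, 0.02 and 0.07. Of the 14 chaperones of the endoplasmic reticulum, where secreted proteins fold, 5 fell, 4 rose and 5 missed the threshold, at a median of -0.01. Hspa5, the HSP70 of that compartment known as BiP, fell by 0.27 on the log2 scale, Dnajb11 by 0.25 and Creld2 by 0.24, while Sdf2l1, Dnajb9 and Pdia6 rose with log2 fold changes of 0.39, 0.36 and 0.24. Scaling to the T cell receptor list made all 14 higher, while it made 71.5% of all genes tested higher and 4.94% lower. Whether the heat shock chaperones differ from these lists was not tested.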

How the data were processed

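The authors deposited 1 table of FPKM values per gene and library. The sources used here name no aligner, counter or annotation. The submitters' processing notes list GRCm38 and mm10 as builds. Of 24769 rows 1 is incomplete and was dropped. Gene IDs were matched to GENCODE release M21 (GRCm38), and 24720 matched. Fits used limma 3.58.1 (R 4.3.3) on log2(FPKM + 1), with an intensity trend, for genes whose mean FPKM reached 1 (Benjamini-Hochberg adjustment over all 11013 genes), which was tested on simulated data. Log2 fold changes understate the change of low genes. Reads were recovered from FPKM, exon length and the library total at which low values were whole: 96.8% to 97.3% of values under 20 reads were whole within 0.1 read. With 2 libraries a group an exact permutation test could not reach 0.05, so none was used, and the p-values reflect no more than the spread of the libraries at hand, possibly technical. Members and lists were chosen with earlier results of these data known. Values in every library were printed for called genes with an absolute log2 fold change of at least 0.5, the highest gene of each family, Hsf1 and some others. Alternatives covered pseudocounts, filters, scalings, the variance trend, a replicate block, voom and leaving out each library. Beyond the chaperones, lists of stress and RNA quality genes and of cell type markers were used.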

Additional observations from a re-analysis of the deposited data

How the results depend on the processing

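The count of 22 lower genes ran from 16 to 19 with each library left out in turn, was 17 with no filter and without a variance trend, 21 with the replicate block and 24 with voom on recovered reads. The 3 higher genes stayed 3 in these fits and were 2 under a stricter filter (mean FPKM of 5 or more), where Hsf2 was not tested. Scaling to the T cell receptor list gave 23 higher genes and 1 lower. Apart from that scaling, 14 of the 22 genes were lower in every fit. The other chaperone network genes called numbered 17, but 11 under the stricter filter, 43 under T cell receptor list scaling and 7 to 19 with a library left out, with 7 and 9 when the first and the second Tbx21-KO library was left out. Over all 11013 genes the share of higher among called genes was 56.7% as deposited, 39.1% under quantile normalization, 43.0% with median-of-ratios scaling and 93.5% with the T cell receptor list. Log2 fold changes that turned sign with the T cell receptor list were 0.17 for Hsf1, 0.12 for Hspa8, 0.15 for Hspa14, 0.27 for Hspa4, 0.0162 for Hsp90aa1, 0.12 for Hsp90ab1, 0.0426 for Hspd1, 0.31 for Hspe1, 0.14 for Dnaja1, 0.20 for Dnaja2, 0.37 for Dnaja3, 0.11 for Dnajb6, 0.0584 for Dnajc2, 0.15 for Dnajc7, 0.25 for Bag1, 0.34 for Stip1, 0.36 for Chordc1, 0.24 for Ptges3, 0.22 for Cct2, 0.0405 for Cct3, 0.19 for Cct4, 0.33 for Cct5, 0.0565 for Cct6a, 0.38 for Cct7 and 0.29 for Cct8. Among genes not called, Trap1 and Fkbp4 turned to -0.10 and -0.11 with median-of-ratios scaling, and Dnajb4 and Fkbp4 to -0.13 and -0.0023 after quantile normalization. With a library left out the log2 fold change ran from -0.0105 to 0.0346 for Trap1, from -0.15 to 0.0411 for Chordc1 and from -0.0048 to 0.0144 for Fkbp4. The cause was not tested. Same-numbered libraries did not deviate together (correlation -0.02 over 11013 genes). With 2 libraries a group this cannot tell whether they were prepared as pairs, and no label says so. The replicate block ended the call of Hspe1 and of no other chaperone gene.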
